A study of Rattus norvegicus with 8 samples.

Results

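The transcripts of the 7 NMDA receptor subunit genes, Grin1, Grin2a, Grin2b, Grin2c, Grin2d, Grin3a and Grin3b, were measured in rat hippocampal neuronal cultures. They were chosen by gene symbol as the members of this receptor family, with no cut-off on a measured value, and are 7 of the 32623 genes in the count tables. The cultures came from wild-type rats of the strain SD, with brain given as the tissue, and all were at day 18 in vitro. In all, 4 libraries were from cultures given vehicle and 4 from cultures given a positive allosteric modulator (PAM) of the NMDA receptor, a kind of drug that strengthens the receptor's response to its own agonists. The comparison asks how PAM altered gene expression. Which compound was used, at what dose and for how long was not stated in the labels. Polyadenylated RNA was sequenced, and the labels do not tell whether the 4 replicates of a group were separate cultures, so the p-values measure the spread between these libraries, which may be technical.

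NMDA receptors are glutamate-gated channels that let calcium into the cell when glutamate and a co-agonist, glycine or D-serine, are bound and the membrane is depolarised. Each receptor is built of GluN1 (Grin1), which is needed in every receptor and binds the co-agonist, together with GluN2 subunits (Grin2a to Grin2d), which bind glutamate and set the channel's kinetics, or GluN3 subunits (Grin3a, Grin3b), which bind glycine and lower calcium entry. In the maturing hippocampus GluN2B predominates early and GluN2A is gained later. GluN2D in the forebrain is known mainly from interneurons and early development, and GluN2C from cerebellar granule cells, from astrocytes and from some interneurons.

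The libraries held between 2960406 and 4389430 gene counts, so a count of 0 allows a level of up to 0.64 to 1.08 CPM (counts scaled to a library of 1000000), a limit that covers counting error only. Mitochondrial genes took 11.8% to 14.1% of counts. In PAM 3 and PAM 4 the levels of long genes were low relative to short ones (slopes of -0.0853 and -0.132 of the log2 level on log2 exonic length, against 0.00524 to 0.0627 in the other libraries), so results are also given without these libraries or with this trend removed where that changes them. The neuronal label was checked on markers: all 9 pan-neuronal markers found by symbol were tested, with a summed level of 4118 to 5728 CPM over the libraries. Astrocyte markers summed to 6283 to 11169 CPM, oligodendrocyte lineage markers to 957 to 1747 CPM and ependymal markers to 37.9 to 207 CPM, while the 2 microglial markers found summed to 1.38 to 6.89 CPM. In such mixed bulk RNA, fewer cells of a type and less RNA per cell cannot be told apart.

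Upstream sequences are shown for the 3 subunit genes whose level changed with PAM, to set the start regions of genes that moved in opposite directions side by side. RefSeq's promoter table held entries for 4 of the 7 genes, Grin1, Grin2c, Grin2d and Grin3a, on the build GRCr8. The sequences are the 250 bases before the annotated start, 5′ to 3′ on the gene's strand: Grin1 from chr3:28528755-28529004, Grin2c from chr10:101005139-101005388 and Grin2d from chr1:105481237-105481486, all on the minus strand. Capitals mark TGACG on either strand, a half-site of the cyclic AMP response element.
Grin1: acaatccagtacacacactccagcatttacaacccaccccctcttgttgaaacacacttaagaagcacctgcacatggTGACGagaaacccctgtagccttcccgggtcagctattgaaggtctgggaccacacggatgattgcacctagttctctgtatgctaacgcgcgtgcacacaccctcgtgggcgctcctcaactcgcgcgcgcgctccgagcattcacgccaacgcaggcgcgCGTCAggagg
Grin2c: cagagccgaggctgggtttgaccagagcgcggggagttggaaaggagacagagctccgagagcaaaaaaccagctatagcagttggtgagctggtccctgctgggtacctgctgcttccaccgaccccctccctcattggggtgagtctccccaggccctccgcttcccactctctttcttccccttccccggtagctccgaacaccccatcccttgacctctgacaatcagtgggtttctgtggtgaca
Grin2d: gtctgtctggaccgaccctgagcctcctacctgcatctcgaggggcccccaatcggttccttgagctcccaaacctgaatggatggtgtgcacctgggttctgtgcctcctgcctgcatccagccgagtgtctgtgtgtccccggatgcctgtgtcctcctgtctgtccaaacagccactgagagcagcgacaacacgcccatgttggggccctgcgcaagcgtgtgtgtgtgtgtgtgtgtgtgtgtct
Grin1 held 2 matches to TGACG, on the plus strand from position -172 and on the minus strand from position -10 relative to the start. The upstream windows of Grin2c, Grin2d and Grin3a held none, and 18.2% of the 33469 promoter windows in the table held at least 1. Neither the GC box GGGCGG, found in 30.5% of all windows, nor GCGCATGC, a core of sites for nuclear respiratory factor 1 found in 2.2%, occurred on either strand in the 4 subunit windows. GC content was 57.6% for Grin1, 59.6% for Grin2c and 60.4% for both Grin2d and Grin3a, above the median of 51.2% over all windows, and the Grin1 window held 19 CpG dinucleotides against 16 for Grin3a, 8 for Grin2c, 9 for Grin2d and a median of 5. These matches are a description of the letters, and no binding was measured.

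Of the 7 subunit genes, 5 had enough counts to be tested, and 3 of these changed with PAM: Grin2c rose, while Grin1 and Grin2d fell. Over the whole transcriptome 2218 of 11740 tested genes, 18.9%, passed the same test (edgeR, quasi-likelihood, with an adjusted p under 0.05 by Benjamini and Hochberg), 9.00% higher and 9.89% lower with PAM. The same 3 subunit genes were those whose groups of libraries did not overlap, against 22.3% of all tested genes. The median log2 fold change of all tested genes was 0.02, and the direction of the Grin1, Grin2c and Grin2d changes was the same under RLE and upper-quartile scaling.

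**Figure D1:**
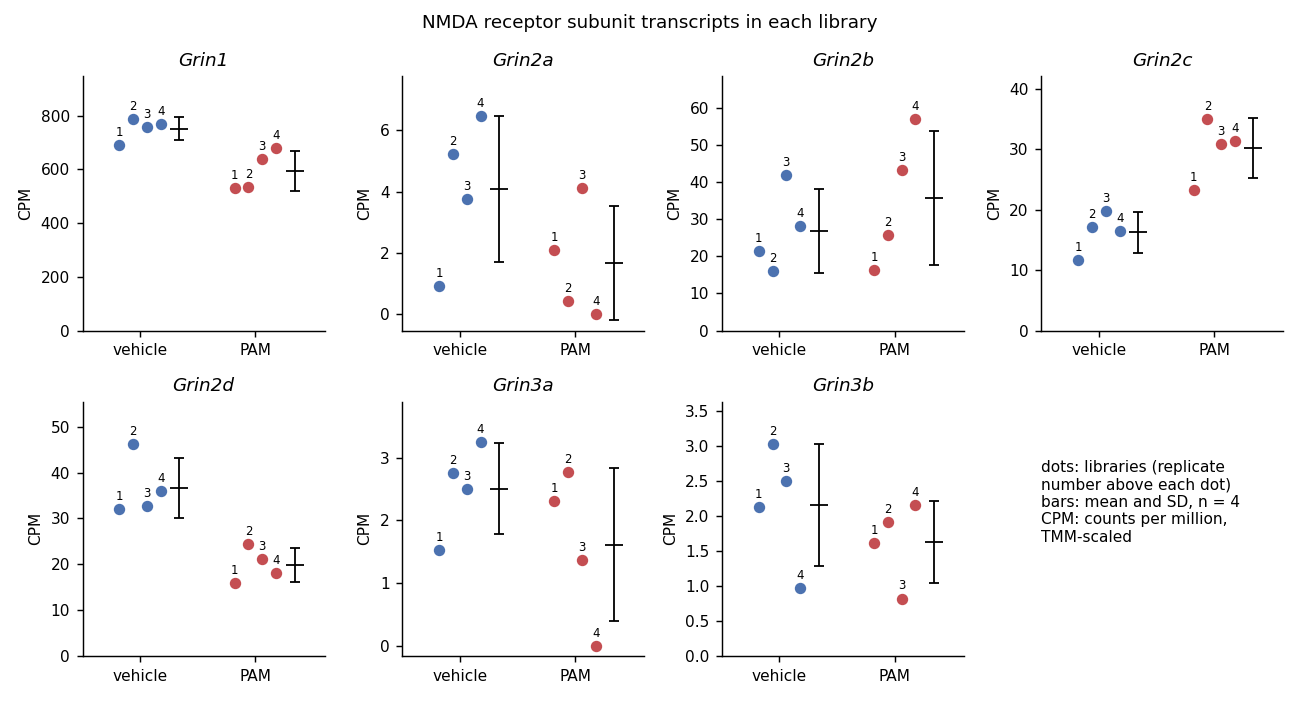
Level of each NMDA receptor subunit transcript (CPM, linear axis, a separate scale for each gene) in the 4 vehicle and 4 PAM libraries; dots are libraries with their replicate number, bars the mean and SD. The groups are apart for Grin1, Grin2c and Grin2d, and overlap for Grin2a, Grin2b, Grin3a and Grin3b, where PAM 4 is at 0 for both Grin2a and Grin3a.

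Grin1 (ENSRNOG00000011726), the obligatory subunit gene, lies on chromosome 3 from 2506896 to 2534663 on the minus strand (Rnor_6.0), with 21 merged exons of 5192 bases in all. It was read 1880 to 2864 times per library. Its levels were 691, 788, 758 and 768 CPM in vehicle 1 to 4, against 529, 535, 638 and 678 CPM in PAM 1 to 4. Every PAM library was thus below every vehicle library, but PAM 4 lay close to vehicle 1, and PAM 1 and PAM 2 were lower than PAM 3 and PAM 4. The mean was 751 ± 42.1 CPM (SD, n = 4) with vehicle and 595 ± 74.4 CPM (SD, n = 4) with PAM, a log2 fold change of -0.34 ± 0.11 (SE), or 0.792 of the vehicle level (edgeR adjusted p = 0.032). This call was lost when vehicle 2 (adjusted p = 0.113), vehicle 3 (0.082), vehicle 4 (0.0945), PAM 1 (0.0997) or PAM 2 (0.0544) was left out, and when the length trend was removed (log2 fold change -0.24, adjusted p = 0.211). With PAM 3 and PAM 4 left out the log2 fold change of Grin1 was -0.48 (edgeR adjusted p = 3.22e-05). An opposite-strand gene shares 781 exonic bases of Grin1 (15%) and held 4 counts over all 8 libraries. Because the counting is not stated to use strand, the effect of the shared bases on the Grin1 counts is not known.

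Some neuronal markers moved in the same direction as Grin1. The summed level of the 9 pan-neuronal markers was 5200 to 5728 CPM with vehicle and 4118 to 5026 CPM with PAM. Of the 9, 4 fell, Tubb3, Elavl3, Rbfox3 and Syp, against 9.89% of all tested genes. The other 5 were not called, with log2 fold changes of -0.19 (Stmn2) to 0.02 (Nefl). Relative to the sum of all 9 markers, counted per kilobase, the log2 level of Grin1 was -4.47 ± 0.04 (SD, n = 4) with vehicle and -4.56 ± 0.06 (SD, n = 4) with PAM. The groups overlapped, and the difference of -0.09 did not pass a two-sided exact permutation test (p = 0.0571, adjusted p = 0.114 over the 18 shares and ratios tested). This value depended on how the markers were combined: with the median of the ratios to the single markers it was -0.31, without overlap (exact permutation p = 0.0286, adjusted p = 0.0735), and with the length trend removed it was 0.08 in the other direction. The part of the neuronal markers in the fall of Grin1 was not tested.

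The GluN2 genes did not move together. Grin2c (ENSRNOG00000003280; chromosome 10, 103798291 to 103816287, minus strand, 15 merged exons of 4669 bases) was read 38, 62, 63 and 51 times in vehicle 1 to 4, against 101, 164, 113 and 87 times in PAM 1 to 4. The exact 95% Poisson interval of the lowest of these counts was 26.9 to 52.2 and that of the highest 140 to 191. In CPM its levels were 11.6, 17.1, 19.7 and 16.5 with vehicle and 23.3, 35, 30.9 and 31.4 with PAM, so that all 4 PAM libraries were above all 4 vehicle libraries. The mean rose from 16.2 ± 3.39 to 30.1 ± 4.92 CPM (SD, n = 4 each), a log2 fold change of 0.89 ± 0.21 (SE), or 1.86-fold (edgeR adjusted p = 0.00586). It passed in all 17 alternative fits tried, with log2 fold changes of 0.76 to 1.0.

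Some astrocyte markers were also higher with PAM: 5 of 9 rose, against 9.00% of all tested genes, and none fell. Among the 5 were Gfap, which codes for the astrocytic intermediate filament (2807 ± 153 to 4622 ± 513 CPM, SD, n = 4 each), and Aqp4, the water channel of astrocyte endfeet (437 ± 25.2 to 699 ± 118 CPM, SD, n = 4 each). The other 4 were not called, with log2 fold changes of 0.19 (Slc1a3) to 0.38 (Aldh1l1). The summed level of all 9 was 6283 to 6600 CPM with vehicle and 9185 to 11169 CPM with PAM. Relative to the summed astrocyte markers per kilobase, a ratio chosen after the data were seen and given without a test, the log2 level of Grin2c was -9.88 to -9.15 with vehicle and -9.72 to -8.89 with PAM. On this scale the groups overlapped, and their means differed by 0.27 (0.12 without vehicle 1, 0.17 without PAM 2, 0.44 without PAM 1, and 0.15 without PAM 3 and PAM 4), while on the scale of pan-neuronal markers they did not overlap and differed by 1.15 (exact permutation p = 0.0286, adjusted p = 0.103). Which cells gave the Grin2c reads was not tested.

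Grin2d (ENSRNOG00000021063; chromosome 1, 101820461 to 101856881, minus strand, 13 merged exons of 5256 bases) went the other way. It was read 105, 168, 104 and 111 times in vehicle 1 to 4, against 69, 115, 77 and 50 times in PAM 1 to 4, that is at 32, 46.2, 32.6 and 35.9 CPM against 15.9, 24.5, 21.1 and 18 CPM. The highest PAM library, PAM 2, was below the lowest vehicle library, vehicle 1. The mean fell from 36.7 ± 6.6 to 19.9 ± 3.75 CPM (SD, n = 4 each), a log2 fold change of -0.88 ± 0.19 (SE), or 0.544 of the vehicle level (edgeR adjusted p = 0.00361). It passed in all 17 alternative fits, with log2 fold changes of -1.0 to -0.74.

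Among the 10 markers of inhibitory neurons 3 fell and 1 rose, against 9.89% and 9.00% of all tested genes. Those that fell included Slc32a1, the vesicular GABA transporter (146 ± 8.5 to 75.9 ± 3.77 CPM, SD, n = 4 each). The calcium-binding protein gene Pvalb rose (9.53 ± 2.28 to 25.9 ± 3.2 CPM, SD, n = 4 each). The number that fell was 2 without vehicle 1, vehicle 4 or PAM 1, 5 without PAM 4 and 6 without PAM 3 and PAM 4. Their summed level was 1851 to 2125 CPM with vehicle and 1317 to 1891 CPM with PAM. Relative to these markers per kilobase, again a ratio chosen after the data were seen and not tested, the log2 level of Grin2d was -7.91 to -7.18 with vehicle and -8.80 to -7.89 with PAM, with means that differed by -0.70 (-0.46 without PAM 3 and PAM 4). Relative to the sum of pan-neuronal markers the difference was -0.63, and the groups overlapped (exact permutation p = 0.0571, adjusted p = 0.114). They did not overlap with the median of the ratios to the single markers (-0.85, exact permutation adjusted p = 0.0735), with the length trend removed (-0.46, adjusted p = 0.0857), without vehicle 3 or without PAM 2. In every PAM library Grin2d was below the vehicle mean relative to inhibitory markers and to the sum of pan-neuronal markers.

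**Figure D2:**
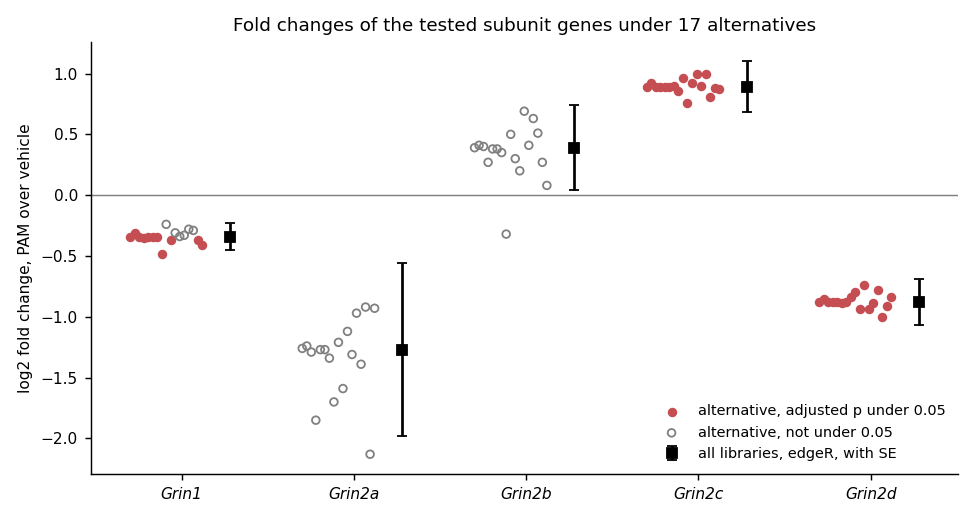
Log2 fold change (PAM over vehicle) of the 5 tested subunit genes with all libraries (squares with SE) and under 17 alternatives (circles; filled where the adjusted p is under 0.05). Grin2c and Grin2d are filled throughout, Grin1 in 11 of 17, and Grin2a and Grin2b in none, with Grin2b at -0.32 without PAM 3 and PAM 4.

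Grin2b (ENSRNOG00000008766; chromosome 4, 169560387 to 169999873, minus strand, 14 merged exons of 5261 bases) codes for the GluN2 subunit of the early postnatal forebrain. Its levels were 21.3, 16, 42 and 28.1 CPM in vehicle 1 to 4, against 16.4, 25.8, 43.3 and 57 CPM in PAM 1 to 4. The spread within each group was wide, up to 3.48-fold between PAM libraries, and the groups overlapped. With means of 26.9 ± 11.2 and 35.6 ± 18.1 CPM (SD, n = 4 each) the log2 fold change was 0.39 ± 0.35 (SE; edgeR adjusted p = 0.485). The 2 highest PAM values were those of PAM 3 and PAM 4, and without these libraries the log2 fold change was -0.32 (edgeR adjusted p = 0.436).

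Grin2a (ENSRNOG00000033942; chromosome 10, 5930298 to 6119990, plus strand, 11 merged exons of 4259 bases) codes for the subunit gained with maturation and was close to the detection limit. It was read 3, 19, 12 and 20 times in vehicle 1 to 4, against 9, 2, 15 and 0 times in PAM 1 to 4. Its levels were 0.915, 5.23, 3.76 and 6.47 CPM with vehicle and 2.07, 0.426, 4.11 and 0 CPM with PAM, so the groups overlapped. The 0 in PAM 4 allows up to 1.08 CPM. The log2 fold change of -1.27 ± 0.71 (SE) did not pass (edgeR adjusted p = 0.235), and it ranged from -2.13 without PAM 3 to -0.92 without PAM 2. Its biological coefficient of variation, the spread between replicates beyond counting error, was 54.4%, higher than for 99.7% of tested genes, against 12% for Grin1, 18.2% for Grin2c and 17.3% for Grin2d.

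The glycine-binding GluN3 genes were too low to be tested. Grin3a (ENSRNOG00000005723; chromosome 5, 64928620 to 65073012, minus strand, 8 merged exons of 3217 bases) was read 5, 10, 8 and 10 times with vehicle and 10, 13, 5 and 0 times with PAM. Grin3b (ENSRNOG00000012562; chromosome 7, 12764993 to 12771310, plus strand, 9 merged exons of 3165 bases) was read 7, 11, 8 and 3 times with vehicle and 7, 9, 3 and 6 times with PAM. Both overlapped between the groups, and a change of either was not detectable at this depth. When genes of low count were kept in the fit, the log2 fold changes were -0.56 ± 0.71 (SE) for Grin3a and -0.42 ± 0.74 (SE) for Grin3b (edgeR adjusted p = 0.646 and 0.764). In fits of Grin3a that left out the library at 0, the value was -0.20 without PAM 4 and 0.04 without PAM 3 and PAM 4 (edgeR adjusted p = 0.847 and 0.979). Grin3b shares 84 exonic bases with Tmem259, an opposite-strand gene read 531 to 781 times per library, and because the counting is not stated to use strand, reads of the pair cannot be told apart there.

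The authors' deposited table gave log2 fold changes of -0.34 for Grin1 (adjusted p = 0.0162), 0.89 for Grin2c (0.0013) and -0.88 for Grin2d (0.000474). In the authors' deposited table the adjusted p was 0.256 for Grin2a, 0.634 for both Grin2b and Grin3a, and 0.728 for Grin3b.

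Levels of different subunit genes were compared as CPM per kilobase of exonic length (RPKM). Grin1 stood far above the rest, at 145 ± 8.11 RPKM with vehicle and 115 ± 14.3 RPKM with PAM (SD, n = 4 each), 20.7 and 16.9 times the next gene. With vehicle the order after Grin1 was Grin2d (6.98 ± 1.26 RPKM), Grin2b (5.1 ± 2.14), Grin2c (3.47 ± 0.727), Grin2a (0.961 ± 0.562), Grin3a (0.778 ± 0.224) and Grin3b (0.682 ± 0.276), all SD with n = 4. With PAM it was Grin2b (6.77 ± 3.44 RPKM), Grin2c (6.45 ± 1.05), Grin2d (3.78 ± 0.714), Grin3b (0.515 ± 0.184), Grin3a (0.501 ± 0.38) and Grin2a (0.388 ± 0.438), likewise SD with n = 4. Neighbours in these orders overlapped in range, except that Grin1 stood above the second gene in both groups, Grin2c above Grin2a with vehicle, and Grin2c above Grin2d and Grin2d above Grin3b with PAM. Whether the annotated 3′ ends of these genes are complete in the gene models used was not tested. Reads beyond them would be missing from these levels, and from the shares and ratios of subunit genes given below.

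As shares of the summed counts per kilobase of all 7 genes, Grin1 made up 89% ± 1.22 with vehicle and 86.2% ± 1.78 with PAM (SD, n = 4 each). This difference did not pass a two-sided exact permutation test (p = 0.0571, adjusted p = 0.114). Grin2c made up 1.69% to 2.53% with vehicle and 4.34% to 6.15% with PAM, without overlap, and Grin2d 3.71% to 5.16% and 2.25% to 3.83%, with overlap (exact permutation adjusted p = 0.103 and 0.114). The smallest exact p that 4 against 4 libraries can give is 0.0286, and after adjustment over the 18 tests of shares and ratios none was under 0.05. A single measure at this smallest p cannot pass after that adjustment, so the lack of a pass does not show that a share or ratio was unchanged. The log2 ratio of the summed Grin2 genes to Grin1 was -3.14 ± 0.19 with vehicle and -2.75 ± 0.26 with PAM (SD, n = 4 each), with overlap (exact permutation p = 0.0857, adjusted p = 0.154).

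Within the 4 Grin2 genes the shares of Grin2c and Grin2d were apart between the groups. Grin2c contributed 19.3%, 21.9%, 21.9% and 20.5% of their summed counts per kilobase in vehicle 1 to 4, against 42.9%, 43.6%, 33.4% and 32% in PAM 1 to 4. Grin2d contributed 47.4%, 52.6%, 32.1% and 39.6% with vehicle and 26.1%, 27.2%, 20.2% and 16.4% with PAM. For both genes the groups did not overlap and the exact permutation test gave its smallest p of 0.0286 (adjusted p = 0.103). Grin2b ranged from 18.2% to 41.4% with vehicle and from 26.8% to 51.6% with PAM, with overlap (exact permutation p = 0.457, adjusted p = 0.549). Its mean share was 6.58 percentage points higher with PAM in all libraries and 2.85 percentage points lower without PAM 3 and PAM 4.

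**Figure D3:**
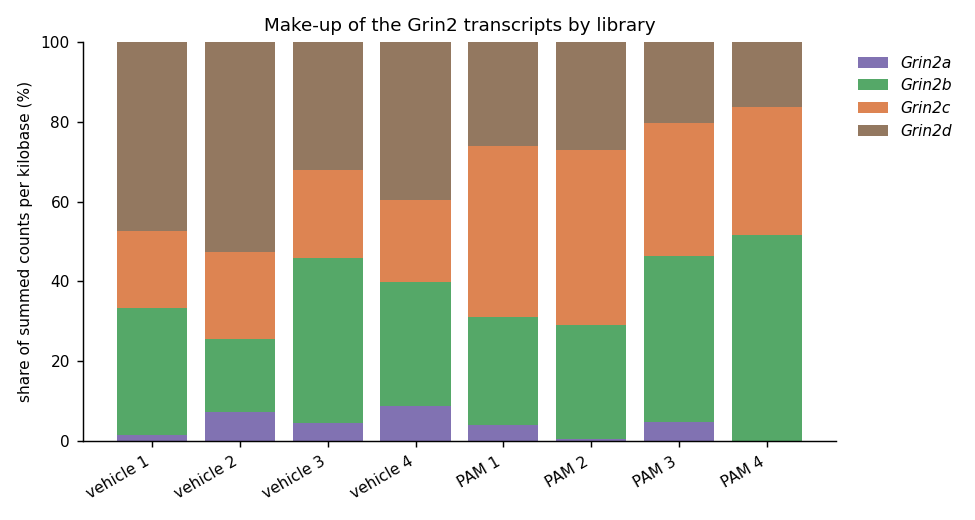
Share of each Grin2 gene (stacked, % of the summed counts per kilobase of the 4 genes) in every library. The Grin2c band averages 20.9% in the vehicle and 38% in the PAM libraries, the Grin2d band averages 43% and 22.5%, and Grin2a is the thinnest band in all 8.

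Of the 4 ratios between subunit genes that were computed, that of Grin2c to Grin2d was the only one whose groups did not overlap. Per kilobase, Grin2c was at 0.411, 0.418, 0.684 and 0.52 of the Grin2d level in vehicle 1 to 4, and at 1.64, 1.6, 1.65 and 1.95 of it in PAM 1 to 4. Grin2d was thus the more abundant of the pair in each vehicle library and Grin2c in each PAM library. The mean log2 ratio was -1.01 ± 0.34 with vehicle and 0.77 ± 0.13 with PAM (SD, n = 4 each), a difference of 1.78 (exact permutation p = 0.0286, adjusted p = 0.103). Under the 11 alternatives the difference was 1.69 to 1.93, with PAM 3 and PAM 4 left out or the length trend removed among them.

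The ratio of Grin2a to Grin2b, the pair known for its developmental exchange, did not separate the groups. Grin2a made up 4.11% of the Grin2a and Grin2b counts in vehicle 1 (exact 95% Clopper-Pearson interval 0.856% to 11.5%), 24.7% in vehicle 2 (15.6% to 35.8%), 8.22% in vehicle 3 (4.32% to 13.9%) and 18.7% in vehicle 4 (11.8% to 27.4%). With PAM it was 11.2% in PAM 1 (5.28% to 20.3%), 1.63% in PAM 2 (0.198% to 5.75%), 8.67% in PAM 3 (4.93% to 13.9%) and 0 of 158 counts in PAM 4 (0% to 2.31%). These intervals cover counting error only, and within both groups some did not overlap, such as those of vehicle 1 and vehicle 2 and of PAM 1 and PAM 4. Per kilobase, with 0.5 added to each count, the log2 ratio was -2.55 ± 1.25 with vehicle and -4.74 ± 2.47 with PAM (SD, n = 4 each), so that Grin2b exceeded Grin2a in all 8 libraries. The groups overlapped, and the difference of -2.18 did not pass (exact permutation p = 0.2, adjusted p = 0.277). All 4 PAM ratios were below the vehicle mean of -2.55, PAM 1 only just, at -2.61. The difference was -1.10 without PAM 4, where Grin2a was not read, and -2.90 without PAM 1.

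**Figure D4:**
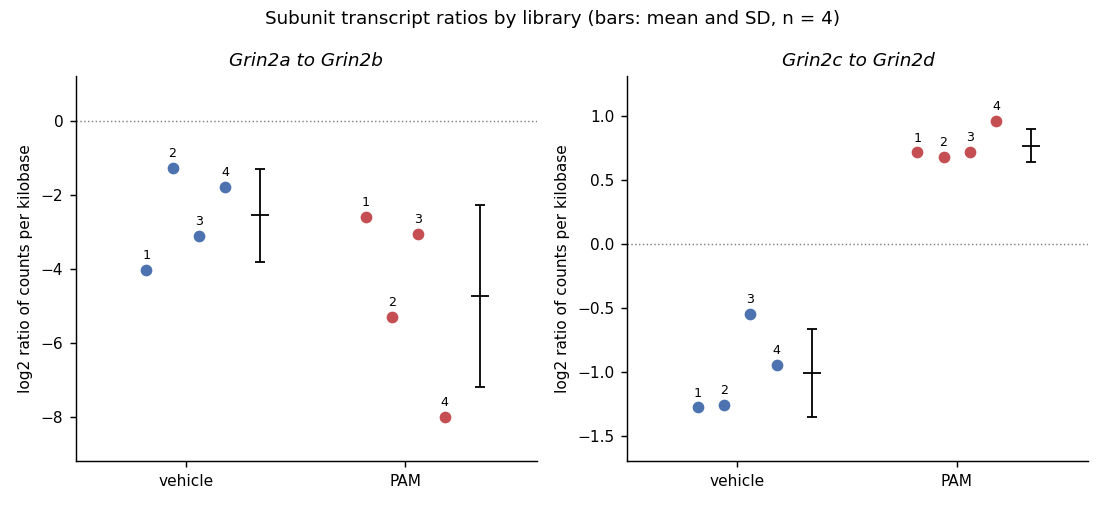
Log2 ratio of counts per kilobase (0.5 added to each count) of Grin2a to Grin2b and of Grin2c to Grin2d in each library, with the mean and SD of 4 libraries; the dotted line marks equal levels. The Grin2a to Grin2b ratios overlap between groups and are below 0 throughout, while the Grin2c to Grin2d ratios are below 0 with vehicle and above 0 with PAM.

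Genes that act with NMDA receptors were described from 5 lists. Of 13 tested genes listed for the supply of the co-agonists D-serine and glycine, 2 rose, against 9.00% of all tested genes, and none fell. The median log2 fold change was 0.16 against 0.02 over all genes. The list also holds Gldc, whose product cleaves glycine, so the list's count and median do not give a direction of co-agonist supply. Phgdh, the first enzyme of serine synthesis, rose from 203 ± 10.7 to 281 ± 38.2 CPM (SD, n = 4 each; log2 fold change 0.47 ± 0.11 SE, edgeR adjusted p = 0.00633). Gldc, which codes for the glycine-cleaving decarboxylase, rose from 48.8 ± 4.92 to 75.9 ± 24.9 CPM (SD, n = 4 each; edgeR adjusted p = 0.024), with overlapping groups, and the count of risen genes dropped to 1 when vehicle 1, vehicle 3, vehicle 4, PAM 1 or PAM 2 was left out. Psat1, a later enzyme of serine synthesis, had a log2 fold change of 0.24 (edgeR adjusted p = 0.133), and Slc1a5, a neutral amino acid transporter gene, one of -0.88 (edgeR adjusted p = 0.164).

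Of 16 tested genes that anchor NMDA receptors or signal downstream of them, 7 fell and none rose, and 15 had negative values, with a median of -0.52. Dlg4, which codes for the scaffold PSD-95 that binds the tails of GluN2 subunits, fell from 605 ± 62.7 to 386 ± 26 CPM (SD, n = 4 each; log2 fold change -0.65 ± 0.10 SE, edgeR adjusted p = 2.38e-04). Log2 fold changes were -0.67 for Dlg3, a related scaffold gene, -0.60 for Rasgrf1, a calcium-responsive activator of Ras, and -0.49 for Camk2b, a subunit of the calcium/calmodulin kinase that binds GluN2B. These 4 genes were picked as those with the smallest p on the list. That their groups did not overlap therefore adds no support, and 22.3% of all tested genes had such groups.

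Of 12 kinases and phosphatases that act on the subunits, 4 fell and none rose, with a median of -0.34. Ptk2b, the calcium-responsive tyrosine kinase Pyk2, fell from 188 ± 15.4 to 90.8 ± 6.25 CPM (SD, n = 4 each; log2 fold change -1.05 ± 0.11 SE, edgeR adjusted p = 5.08e-06). Log2 fold changes were -0.71 for Ptpn5, the tyrosine phosphatase STEP that opposes phosphorylation of GluN2B, and -1.07 for Cdk5r1, an activator of the kinase Cdk5. Of 15 tested genes for transport, internalisation and membrane partners, 4 fell and none rose, with a median of -0.20. Log2 fold changes were -1.17 for the adaptor gene Apba1, -1.03 for Reln, which codes for the secreted protein reelin, -0.92 for Lin7b and -0.39 for the clathrin adaptor subunit gene Ap2a1. Ap2a1 no longer passed without vehicle 2.

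Of 12 listed transcriptional regulators, 7 were tested and none passed by edgeR, with a median of 0.22; the smallest p was that of Nrf1, at 17.2 ± 3.82 and 24.2 ± 2.9 CPM (SD, n = 4 each; edgeR adjusted p = 0.115). Without PAM 3 and PAM 4, 1 of them was higher. Excitatory neuron markers moved with the 3 lists of falling partners: 3 of 7 fell, Neurod6, Slc17a7 and Neurod2 (the last not without vehicle 2 or vehicle 4), and their summed level was 1376 to 1627 CPM with vehicle and 885 to 1010 CPM with PAM. The part of this in the values of the partner genes was not tested.

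**Figure D5:**
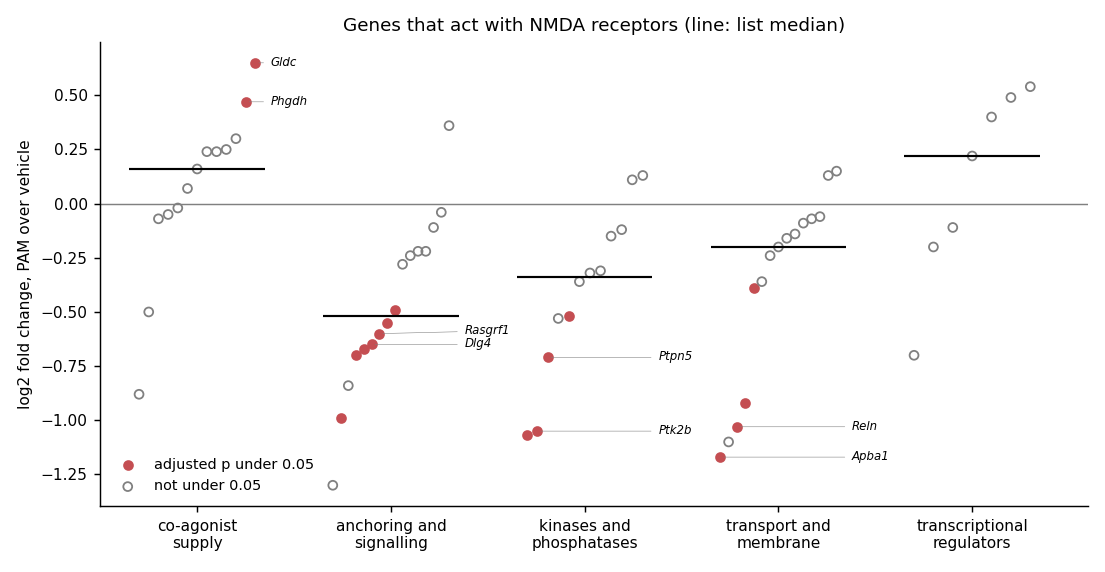
Log2 fold change (PAM over vehicle) of each tested gene on 5 lists of genes that act with NMDA receptors; filled circles have an adjusted p under 0.05, lines are list medians, and the called genes among the 2 with the smallest p on each list are named. Filled circles lie above 0 for co-agonist supply (2 of 13) and below 0 for anchoring and signalling (7 of 16), kinases and phosphatases (4 of 12) and transport (4 of 15).

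Across the 8 libraries the level of Grin1 went with that of Grin2d (Pearson r = 0.77 of log2 CPM) and against that of Grin2c (r = -0.59), Grin2c went against Grin2d (r = -0.66), and Grin2a and Grin2b were weakly opposed (r = -0.28). These values include the difference between the groups and rest on the same libraries and depths. Among 8862 named genes with a mean of at least 10 CPM, those most like Grin1 over the 8 libraries were Rnf187 (r = 0.991), Dlgap3 (0.987), Dnajb5 (0.984) and Igfbp4 (0.983). Dnajb5 did not pass the test (edgeR adjusted p = 0.188) and the others fell. For Grin2d they were Tpd52 (r = 0.982), Ripor2 (0.980), Capn5 (0.969) and Kiaa0895l (0.969), and all 4 fell with PAM. For Grin2c they were Twf1 (r = 0.982), Nucb2 (0.969), Tspan18 (0.964) and Arhgap11a (0.964), of which Nucb2 did not pass the test (edgeR adjusted p = 0.0731) and the others rose. For Grin2b they were Wdr53 (r = 0.971), Slc16a6 (0.958), Chmp2a (0.946) and Eif5b (0.941), and for Grin2a Bcl9 (r = 0.978), Per1 (0.952), Atp6v0e2 (0.936) and Scfd2 (0.936), of which only Per1 passed the test (edgeR adjusted p = 0.0369). These genes were picked as the highest of 8862 over 8 points, and the correlations are given as a description. Because r includes the difference between the groups, a rise or fall shared with the subunit gene follows from the pick and adds no support.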

How the data were processed

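Polyadenylated RNA was extracted with RNAiso Plus and made into libraries with a Vazyme VAHTS kit for mRNA, as the labels' protocols state. What the authors deposited for each library was a table of whole-number counts per gene, whose columns are those of featureCounts, with exon positions and exonic length. The submitters' processing notes name STAR, featureCounts, DESeq, DESeq2 and the build Rnor_6.0, with no version; the strand setting and annotation release were not stated there. A further deposited table holds the authors' own comparison: a group mean per gene (a signal value), a log2 fold change and a p-value, raw and adjusted. Gene symbols came from it.

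The counts were fitted by edgeR 4.0.16 in R 4.3.3: filterByExpr, TMM scaling, a robust quasi-likelihood F test, and group as the only term. Genes with an adjusted p under 0.05 were called, and the verbs rose and fell are used for these. An SE was taken as log2 fold change over the root of F. CPM and RPKM use TMM-scaled library sizes. Shares and ratios used counts per kilobase; 18 of them were tested by two-sided exact permutation over the 70 assignments with Benjamini-Hochberg adjustment, and 4 shares of genes with a library under 20 counts were not tested. Totals were 2960406 to 4389430 counts, and replicates differed by more than sampling noise. Alternatives were RLE and upper-quartile scaling, DESeq2 1.42.0, limma-voom (limma 3.58.1), no low-count filter, a mean of at least 1 CPM, a block for replicate number, single libraries left out, PAM 3 and PAM 4 left out, removal of the length trend (loess, span 0.5), the median ratio to the single pan-neuronal markers, shares of raw counts, and, chosen after seeing the data, a pseudocount of 1 in place of 0.5. In counts simulated for this comparison (11771 genes tested), the fit found 14 out of 66 simulated 1.5-fold changes, 59 out of 67 at 2-fold and 63 out of 63 at 4-fold. False calls numbered 3 among 139. The simulation gave every gene the same spread, with few changed genes, no length trend and no greater noise in the PAM libraries. Recovery and false calls in the real data may therefore differ and were not measured.

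The 7 genes are defined by symbol, but the choice to report on them, the partner and marker lists and the tests were made with earlier results of these data known. All 7 members were named, up to 4 genes of each list with the smallest p, and the 4 genes most like each tested member; 1 gene so selected is not reported here. For the lists of microglial, endothelial and fibroblast markers, 2 of 6, 1 of 4 and 3 of 4 symbols were found; 1 endothelial gene (not without vehicle 2, vehicle 3 or PAM 2) and 1 fibroblast gene rose and none fell, and no microglial gene was tested. Of the 10 oligodendrocyte lineage markers 5 rose and 1 fell (none without PAM 3 and PAM 4, or without vehicle 1, vehicle 2, PAM 1 or PAM 3 alone), and all 5 ependymal markers found rose. Over all tested genes 9.00% rose and 9.89% fell.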

Additional observations from a re-analysis of the deposited data

Results flagged for a closer look

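In a group of 4, a library was singled out when its gap to the nearest of the others took up most of the group's range (Dixon's test at its 95% level), which chance does in about 1 in 20 groups; 62 groups of subunit shares and ratios were looked at. Grin2c's share of the 7 subunits was 6.15% in PAM 2, above 4.62% in the next library, and its log2 level over pan-neuronal markers was -8.37 there, above -8.79. The log2 ratio of Grin2c to Grin2d was 0.964 in PAM 4 against 0.721 in the next library, so the library that stood apart was the one farthest from the vehicle group. PAM 1 had a log2 ratio of the summed Grin2 genes to Grin1 of -3.13, against -2.64 in the nearest PAM library, and lay within the vehicle range of -3.37 to -2.92. Grin3b in PAM 3, with 3 counts, made up 0.181% of the subunits and had a log2 level over pan-neuronal markers of -13.3.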

How the results depend on the processing

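Grin2c and Grin2d were called in all 17 alternative fits and Grin1 in 11; Grin2a and Grin2b were called in none. The number of called subunit genes was 3, or 2 where Grin1 was lost, and the number of called genes over the transcriptome was 1527 to 2900. With the replicate number as a block, 2064 genes were called and the calls of the 5 tested subunit genes did not change; same-numbered libraries had correlations of -0.06 to 0.07 of their deviations, so the numbers were not taken as pairs. Without PAM 3 and PAM 4 the direction turned for the log2 fold change of Grin2b (-0.32), the share of Grin2b in the Grin2 genes (-2.85 percentage points), the log2 ratio of Grin3a to Grin1 (0.532), the log2 levels of Grin3a (0.456) and Grin3b (0.211) over pan-neuronal markers, and the untested shares of Grin3a (0.192 percentage points) and Grin3b (0.0515) in the 7 subunits. With the length trend removed the log2 level of Grin1 over these markers differed by 0.0769. With single libraries left out, the log2 ratio of Grin3a to Grin1 differed by -1.27 to 0.175 between the groups, the log2 level of Grin3a over pan-neuronal markers by -1.36 to 0.0674 and that of Grin3b by -0.443 to 0.212; no tested share or ratio reached an adjusted p under 0.05 in any setting, where the smallest raw exact p was 0.0286 with 1 library left out and 0.0667 with PAM 3 and PAM 4 left out. The cause of the turns was not tested. With PAM 3 and PAM 4 left out, the smallest exact p of 0.0667 made an adjusted p under 0.05 impossible. In the other settings a single measure at the smallest exact p could not pass alone. Depth limits Grin2a, Grin3a and Grin3b most, with 80, 61 and 54 counts over all 8 libraries.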
